A study of Homo sapiens with 27 samples.

Results

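MDA-MB-231 cells carrying dCas9-KRAB and gRNAs against ZEB1 were compared with both kinds of control cell at once. The 6 targeted libraries were set against 6 control libraries, 3 from untransduced wild type cells and 3 from cells with the dCas9-KRAB vector and No gRNA, and genes were retained when all 6 targeted values lay on the same side of all 6 controls. These 12 libraries are part of a series of 27 that also holds SUM159, and in them 1378 of 15721 genes with sufficient counts met the rule. In 910 genes every targeted library was higher than every control (5.79% of genes tested), and in 468 every targeted library was lower (2.98%).

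ZEB1 is a zinc finger transcription factor of the epithelial-to-mesenchymal transition (EMT). It binds E-box elements in promoters of epithelial genes and recruits corepressors, and cells with high ZEB1 typically lack the junctions, apical-basal polarity and splicing factors of epithelium. KRAB, a repressor domain found in many zinc finger proteins, was fused to catalytically inactive Cas9 (dCas9) so that gRNAs at the ZEB1 promoter would bring it to the gene. MDA-MB-231 is a human triple-negative breast cancer (TNBC) line of the mesenchymal, claudin-low class.

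Wild type cells received neither vector nor drug. All other MDA-MB-231 groups carried the lentiviral vector pLV dCas9-KRAB, in which the human ubiquitin C promoter drives dCas9-KRAB and puromycin resistance and a U6 promoter drives the gRNA, and all of them were selected with 0.75 µg/mL puromycin 4 days after transduction. Targeted cells received gRNA 4 alone or the pool of 4 gRNAs (All gRNA), but for the 6 targeted libraries the sample title and the name of the data column give opposite conditions. The 3 libraries titled gRNA 4, whose columns name the pool, are called set 1, the 3 titled as the pool, whose columns name gRNA 4, are called set 2, and neither was assigned to a gRNA condition. The replicates are described in the study's methods as individual clones, with no further detail in the labels, so p-values measure the spread between these libraries only. All 12 libraries belonged to sequencing run 2.

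Library totals ranged from 15461200 to 17288989 estimated counts, and log2 values correlated at 0.979 to 0.982 between replicates of a group. Of the hormone receptor and HER2 genes, ESR1 and PGR had too few counts to be tested and ERBB2 had enough. VIM and CD44 were abundant, at up to 2663 and 2476 CPM (counts relative to library totals scaled by the trimmed mean of M-values). The leukocyte genes PTPRC, CD3E and LYZ and the endothelial genes VWF and CDH5 likewise had too few counts to be tested. The leukocyte gene CD14, the endothelial genes PECAM1 and KDR and 3 of 6 fibroblast marker genes had enough. CD68, a lysosomal gene that leukocytes also express, ranged from 66.1 to 176 CPM over the 12 libraries. ZNF10, the zinc finger gene whose KRAB domain is commonly used in such fusions, separated the vector-bearing cells from wild type. It measured 1.23, 1.90 and 2.81 CPM in wild type cells, 297, 292 and 269 CPM in No gRNA cells, 320, 330 and 369 CPM in set 1, and 297, 306 and 293 CPM in set 2. Whether these reads came from the transgene was not tested.

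ZEB1 (ENSG00000148516, GRCh38 chromosome 10, 31318495 to 31529814, plus strand) was the falling gene with the widest separation. It measured 78.2, 69.5 and 73.9 CPM in wild type cells and 106, 124 and 106 CPM in No gRNA cells, against 4.84, 5.60 and 5.88 CPM in set 1 and 5.09, 3.84 and 5.60 CPM in set 2. The lowest control and the highest targeted library were 3.54 apart on the log2 scale, while the sets overlapped each other. In bulk libraries, fewer cells with the transcript and less transcript per cell cannot be told apart. The log2 fold change, the mean of both sets against the mean of both controls, was -4.15 (SE 0.12, adjusted p = 1.48e-08 by TREAT, limma's test against a log2 change of 1). Against wild type alone it was -3.76 in set 1 and -3.94 in set 2, and against No gRNA -4.36 and -4.54. How the antisense gene ZEB1-AS1 shares these reads cannot be told apart, since the strandedness of the libraries is not given in the sources used here.

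Both controls were needed because they differed from each other about as much as the targeted cells differed from them. The root mean square log2 difference over all genes was 0.790 between wild type and No gRNA and 0.777 between set 1 and set 2, against 0.670 between No gRNA and set 1, 0.680 between wild type and set 2, 0.847 between No gRNA and set 2 and 0.990 between wild type and set 1. The first principal component (38.7% of variance) placed wild type with set 2 and No gRNA with set 1, and the second (23.6%) parted targeted from control libraries. TREAT called 566 genes between No gRNA and wild type (3.6%) and 483 between set 2 and set 1 (3.07%). Of the 910 higher genes, 16 were called higher in No gRNA than in wild type and 0 lower, and 2 were called higher and 13 lower in set 2 than in set 1. Of the 468 lower genes, 3 were called higher and 1 lower in No gRNA, and 0 between the sets.

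With wild type cells as the sole control, 171 genes were called higher in both sets and 20 lower. With No gRNA as the sole control, 100 were called higher and 41 lower. Only 89 higher genes (0.566% of genes tested) and 7 lower genes (0.0445%) were called in all 4 comparisons of a set with a control, and all 96 of them were also separated in all 12 libraries. Of the 41 called lower against No gRNA, 23 were separated from wild type as well, 7 were called against it and 8 changed in the opposite direction, whereas of the 100 called higher, 98 were separated from wild type, 89 were called and 0 were opposite. On the mean of both controls, TREAT called 207 genes higher (1.32%) and 48 lower (0.305%). This split rested on the control and the test, at 140 higher and 138 lower with No gRNA alone, 322 and 127 with wild type alone, and 3470 and 3538 with limma's test against 0 on both. These comparisons share their targeted libraries and are given side by side.

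**Figure D1:**
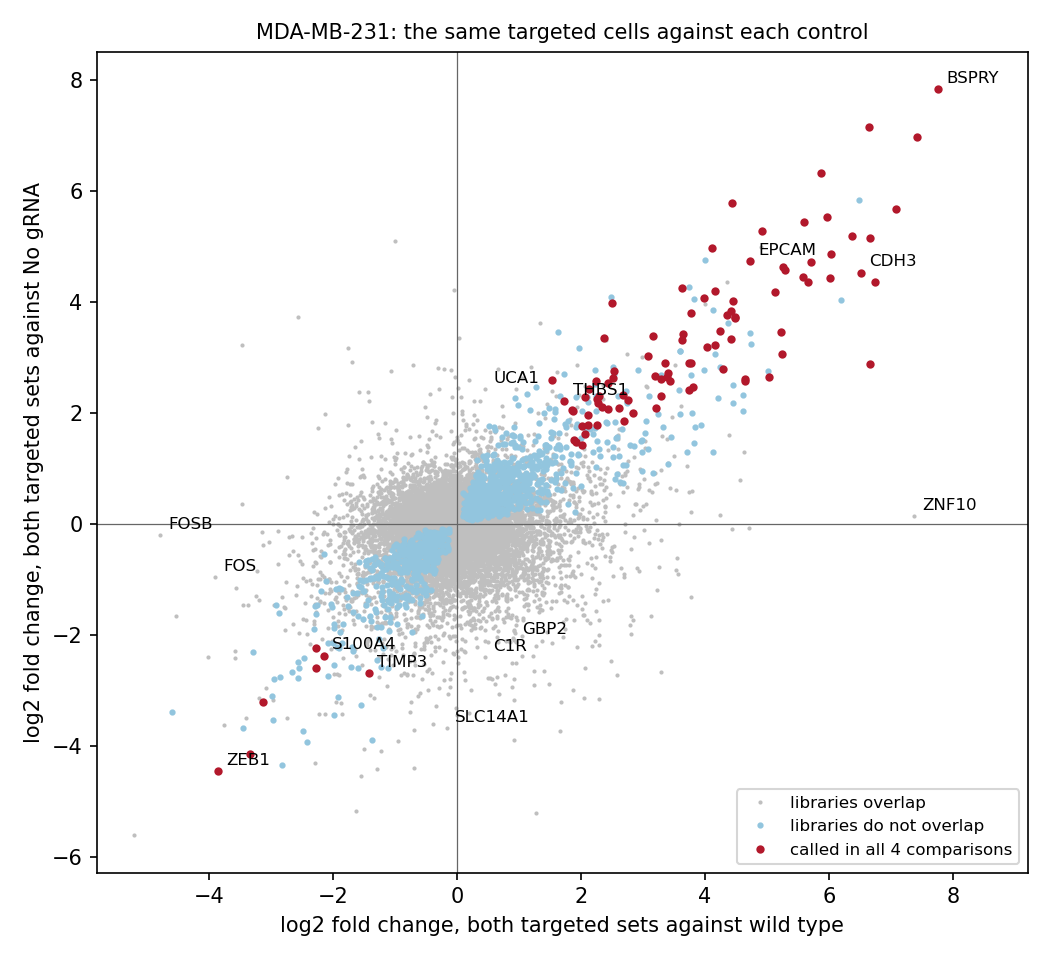
The log2 fold change of both targeted sets against wild type (horizontal) and against No gRNA (vertical) in MDA-MB-231, each point 1 of 15721 genes. The 96 genes called in all 4 comparisons (red) lie in the upper right and lower left, ZNF10 and FOSB lie along the horizontal axis with a change against wild type only, and SLC14A1, C1R and GBP2 lie below the horizontal axis, lower against No gRNA and not against wild type.

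Genes that passed TREAT against a single control are named here after their values were seen. UCA1, a long noncoding RNA of epithelial tumours, was at 131 ± 6.86 CPM in set 1 and 213 ± 9.59 CPM in set 2 (SD, n = 3), above No gRNA cells at 30.8 ± 2.17 CPM, but wild type cells were at 122 ± 6.71 CPM. C1R, a complement protease, stood at 25.7 ± 2.21 CPM in No gRNA cells against 6.33 ± 0.441 and 4.09 ± 2.22 CPM in the sets, with wild type at 3.55 ± 0.377 CPM. GBP2, an interferon-inducible GTPase, followed the same order, at 48.7 ± 3.25 CPM in No gRNA cells, 15.8 ± 1.35 and 8.44 ± 1.70 CPM in the sets and 6.05 ± 0.0655 CPM in wild type. For these genes No gRNA was the group that stood apart. The opposite case was FOSB, an immediate early AP-1 subunit, at 120 ± 11.5 CPM in wild type cells and 4.96 ± 0.211 CPM in No gRNA cells, with 10.8 ± 2.21 and 1.89 ± 0.880 CPM in the sets, so that its lower level in targeted cells was shared by cells with the vector alone. FOS, of the same family, was also highest in wild type, at 278 ± 23.7 CPM, against 36.7 ± 9.50, 36.4 ± 4.35 and 9.97 ± 3.69 CPM in No gRNA, set 1 and set 2.

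The 89 genes that rose in all 4 comparisons changed by 1.70 to 7.80 on the log2 scale, with a median of 3.47, and 82 of them are protein coding. Among them, 6 had at most 3 counts in every control library. With the lower limit of the counting ratio in place of the fitted value of these 6, the median stayed at 3.47, since all 6 limits lie above it. In 22 of the 89 and 2 of the 7 falling genes the filter on low counts was passed only through the group where the gene was high, so these had to differ, as did 67 of the 910 and 41 of the 468. Among the genes described below these were BSPRY, KDF1, LAD1, ATP2C2, CRB3, DAPP1, SPINT1-AS1, ENSG00000275234, MARVELD3, PTAFR, HSH2D, LCK, ZBED2, RNF223 and TMEM51-AS1, and of the falling genes ATOH8 and OLFML1. CDH1, OVOL1 and OVOL2 passed in the same way, as did SPARC and CXCL5 through the controls. Their values are a description, and the list counts below include them. The median gap between the nearest targeted and control libraries was 1.97 on the log2 scale, and it was above 1 in all 89. For comparison, the median absolute difference of these genes between No gRNA and wild type was 0.587 (0.452 over all genes tested) and between the sets 0.351 (0.439 over all genes tested). SPINT1, FAM83H, F11R, PAEP and IL23A were called higher in No gRNA than in wild type cells, and ZBED2 and IL23A were called between the sets.

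**Figure D2:**
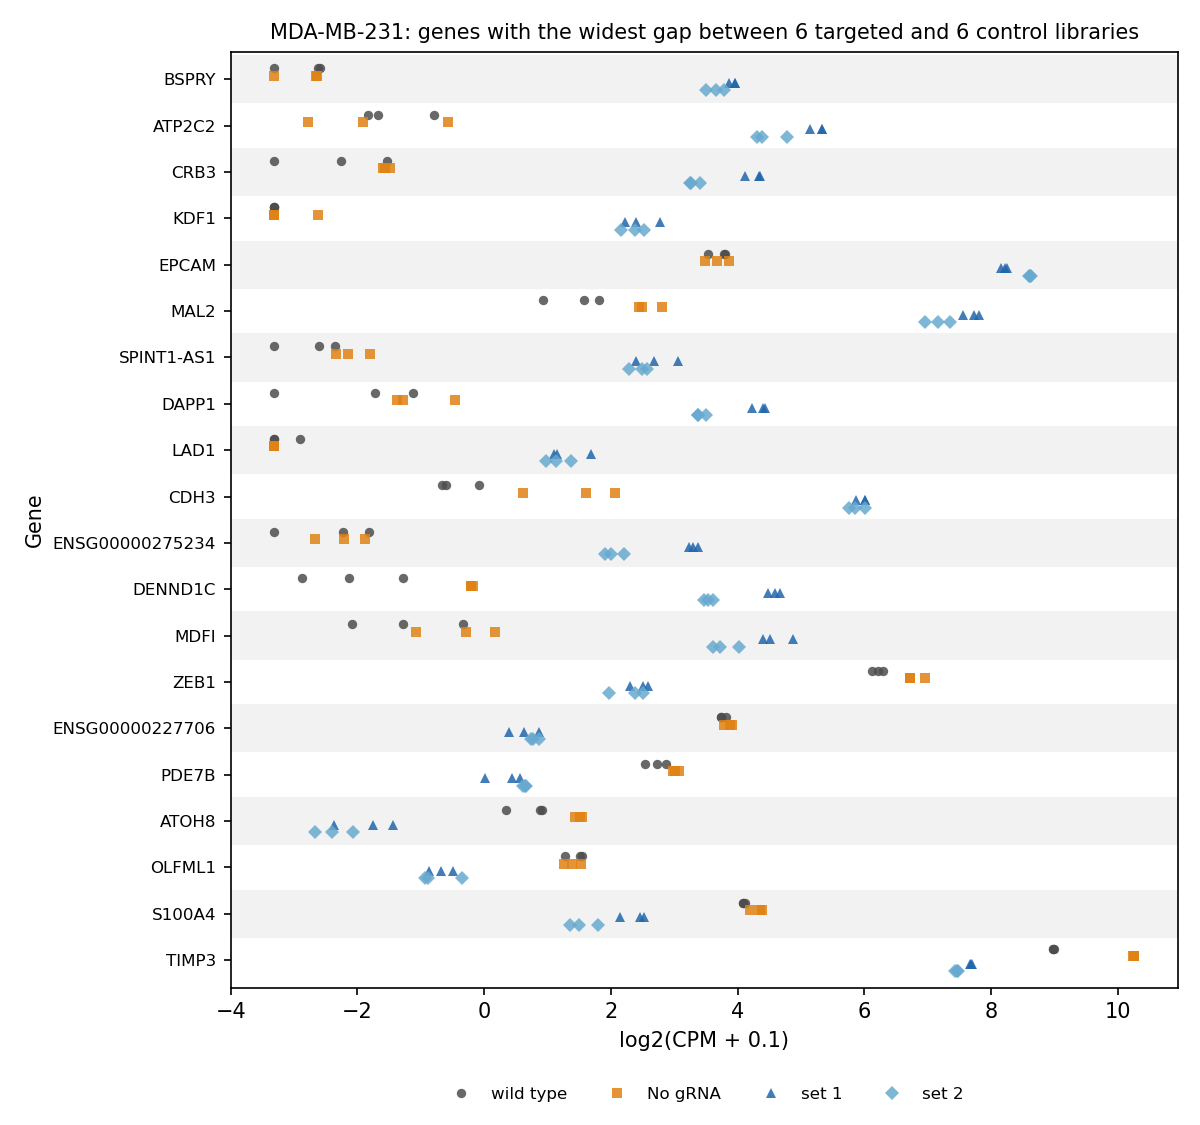
Levels in the 12 MDA-MB-231 libraries of 13 rising genes with a wide gap and the 7 falling genes, as log2(CPM + 0.1), each point 1 library. In every row the set 1 and set 2 points lie on one side of all wild type and No gRNA points, and BSPRY, KDF1 and LAD1 are at or near 0 in the controls.

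The widest gap was that of BSPRY (ENSG00000119411, chromosome 9, 113349541 to 113371233, plus strand), a B-box and SPRY domain protein. It was at or under 0.0651 CPM in all 6 controls and at 15.5, 15.5 and 14.5 CPM in set 1 and 12.6, 13.7 and 11.3 CPM in set 2. From its counts the ratio was 354, with a 95% exact interval of 138 to 1301 that covers counting error only. KDF1, a regulator of epidermal differentiation, was at 0 in 5 of the 6 controls and reached 4.37 to 6.71 CPM in the targeted libraries, a ratio of 538 (96.2 to 21305). LAD1, ladinin of the basement membrane zone, was likewise near 0 in the controls and at 1.87 to 3.12 CPM in the targeted libraries, with a ratio of 233 (41.4 to 9250). The other genes with at most 3 counts in every control were ZBED2, RNF223 and TMEM51-AS1, with ratios of 74.4 (28.8 to 275), 72.4 (24.4 to 354) and 61.5 (16.6 to 514). All 6 were near 0 in the controls and detected in each targeted library.

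Other rising genes with a wide gap were of mixed function. ATP2C2, a calcium and manganese pump of the secretory pathway, measured 0.0451 to 0.576 CPM in controls, 35.4 to 40.2 CPM in set 1 and 19.6 to 27.5 CPM in set 2. DENND1C, an exchange factor for Rab GTPases, rose by 5.56 and MDFI, an inhibitor of MyoD family factors, by 5.22. SPINT1-AS1 and ENSG00000275234, noncoding genes that overlap SPINT1 and DENND1C, rose by 5.78 and 5.75. Set 1 was above set 2 in every library for ATP2C2, DENND1C, MDFI and ENSG00000275234, although TREAT called none of them between the sets.

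EPCAM (ENSG00000119888, chromosome 2, 47345158 to 47387601, plus strand), the epithelial cell adhesion molecule, measured 13.8, 13.6 and 11.5 CPM in wild type cells and 12.7, 11.1 and 14.5 CPM in No gRNA cells. In set 1 it reached 299, 285 and 304 CPM and in set 2 388, 393 and 397 CPM, a log2 fold change of 4.73 (SE 0.0642, adjusted p = 8.83e-12 by TREAT). The controls did not differ by more than their spread, and set 2 was above set 1 in every library. CDH3 (P-cadherin; ENSG00000062038, chromosome 16, 68636189 to 68727468, plus strand) measured 0.529, 0.848 and 0.555 CPM in wild type and 4.09, 2.96 and 1.42 CPM in No gRNA cells, against 64.5, 58.5 and 64.6 CPM in set 1 and 53.9, 64.3 and 57.5 CPM in set 2. Its log2 fold change was 5.52 (SE 0.259, adjusted p = 3.94e-07 by TREAT), and the sets overlapped. CDH1, E-cadherin, was less uniform, at 0 to 0.155 CPM in wild type and 0.196 to 1.03 CPM in No gRNA cells, 10.5 to 24.6 CPM in set 1 and 1.30 to 5.23 CPM in set 2. CDH1 was separated in all 12 libraries, but not called in all 4 comparisons.

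Junction genes were described by lists for each structure, counted as separated higher or lower of the genes tested. Of 10 tested genes of the adherens junction and EPCAM list, 5 were separated higher and 0 lower, and beside CDH1, CDH3 and EPCAM these were CTNNA1, which changed by 0.17 on the log2 scale, and JUP, plakoglobin, which changed by 1.75. The tight junction list had 8 of 14 higher and 0 lower. Called on the mean contrast were MARVELD3, a relative of occludin (4.13), F11R, the junctional adhesion molecule JAM-A (3.13), OCLN, occludin (1.70), and LSR, of tricellular junctions (1.60). CLDN3 and CLDN4 were separated without a call, by 1.02 and 0.88. F11R rose from 24.4 to 27.9 CPM in wild type and 58.0 to 70.0 CPM in No gRNA cells to 398 to 417 CPM in set 1 and 308 to 320 CPM in set 2. The scaffold gene TJP1 was separated with a smaller change of 0.75, and CLDN1 overlapped (0.23). In the desmosome list 6 of 8 were higher and 0 lower, with PKP3, a plakophilin, at 2.25, DSP, desmoplakin, at 1.84, DSC2 at 1.70 and DSG2 at 1.32, all on the log2 scale. DSP measured 99.5 to 104 CPM in wild type cells, 141, 145 and 125 CPM in No gRNA cells, 438, 465 and 535 CPM in set 1 and 368, 379 and 375 CPM in set 2. EVPL and PPL, which join desmosomes to filaments in stratified epithelia, overlapped between the groups.

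Of the 9 tested genes of hemidesmosomes and laminin-332, 2 were separated higher. ITGB4, an integrin subunit of hemidesmosomes, was among them and changed by 0.78. LAMB3 was not separated, since set 2 lay below No gRNA (log2 difference -0.06) and above wild type (1.24). Of 9 keratins, KRT7, KRT18 and KRT19 were separated higher, by 0.95, 0.82 and 0.77, and none was called. KRT8, which pairs with KRT18, was at 638 to 657 CPM in wild type and 1023 to 1090 CPM in set 2, but at 264 to 277 CPM in No gRNA and 238 to 256 CPM in set 1.

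Genes of cell polarity and apical transport followed the adhesion genes in part. Of 17 tested, 6 were separated higher and 0 lower. CRB3 (ENSG00000130545, chromosome 19, 6463777 to 6467221, plus strand), the apical determinant Crumbs3, was at 0 to 0.257 CPM in the controls and at 17.3 to 20.3 CPM in set 1 and 9.45 to 10.5 CPM in set 2. Its partner PATJ changed by 2.34 and LLGL2, a basolateral determinant, by 2.19, and both were called on the mean contrast. MAL2, a carrier protein of transcytosis, rose from 1.79 to 3.42 CPM in wild type and 5.33 to 6.88 CPM in No gRNA to 188 to 223 CPM in set 1 and 124 to 163 CPM in set 2. STX3, an apical syntaxin, was called at 1.21 and MYO5C was separated at 0.76, whereas PALS1, PARD3, PARD6A and PARD6B of the polarity complexes overlapped. RAB17, a GTPase of epithelial sorting, and COBL and MYO1D, which act on actin, were among the 89, at 3.61, 3.02 and 4.35 on the log2 scale, as was MAP7, a microtubule-associated protein of epithelial cells, at 4.07.

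Of 10 epithelial transcription and splicing regulators tested, 5 were separated higher and 0 lower. ESRP1, the epithelial splicing regulator, measured 1.22, 3.05 and 0.494 CPM in wild type and 2.27, 4.38 and 2.80 CPM in No gRNA cells, and 74.5, 61.8 and 76.9 CPM in set 1 and 58.1, 68.1 and 45.3 CPM in set 2 (log2 fold change 5.02, SE 0.33, adjusted p = 9.5e-06 by TREAT). Its paralog ESRP2 overlapped, at no more than 2.34 CPM in any library. OVOL1 and OVOL2, zinc finger repressors of mesenchymal genes, were separated at low levels, having passed the count filter through the targeted libraries, OVOL1 at no more than 0.0931 CPM in controls and 0.212 to 2.04 CPM in targeted libraries, OVOL2 at no more than 0.104 CPM and 1.45 to 7.25 CPM. GRHL1 and KLF5 were separated without being called, KLF4, ELF3 and EHF overlapped, and GRHL2 and GRHL3 had too few counts to be tested.

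The list of membrane proteases and inhibitors was led by SPINT1 (ENSG00000166145, chromosome 15, 40844018 to 40858207, plus strand), the inhibitor of hepatocyte growth factor activator and matriptase. It measured 3.23, 4.17 and 3.29 CPM in wild type, 14, 16.4 and 17.8 CPM in No gRNA, 163, 157 and 147 CPM in set 1 and 114, 123 and 114 CPM in set 2. Its change was 4.16 (SE 0.0944, adjusted p = 2.43e-09 by TREAT), and No gRNA lay above wild type by 2.17, so the size of the rise depended on the control while its direction did not. Of 4 tested genes in that list 3 were separated higher, with PRSS22 at 2.93 and SPINT2 at 0.90, and ST14, matriptase itself, overlapped.

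Several of the 89 belong to no epithelial list. LCP1, the actin-bundling protein L-plastin, best known from leukocytes, rose from 87.4 to 91.7 CPM in wild type and 76.1 to 76.5 CPM in No gRNA to 457 to 463 CPM in set 1 and 577 to 590 CPM in set 2 (log2 fold change 2.65, SE 0.0231, adjusted p = 2.81e-12 by TREAT). DAPP1, an adaptor of B cell signalling, PTAFR, the receptor for platelet-activating factor, HSH2D, an SH2 adaptor, and LCK, a T cell kinase, were among the 89 as well and are named after their values were seen. Of the leukocyte marker list, the genes with enough counts to test were CD14 and CD68, which overlapped and had log2 changes of -1.39 and -0.41. IL23A, a cytokine subunit, was separated but uneven, at 42.0 to 43.8 CPM in set 1, 9.02 to 10.9 CPM in set 2, 3.05 to 3.62 CPM in No gRNA and 0.354 to 0.896 CPM in wild type. Members of the FAM83 family, scaffolds for casein kinase 1, appeared as FAM83A, FAM83B and FAM83H, at 3.08, 3.95 and 3.63.

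Mesenchymal genes did not move as a group. Of 18 tested genes for mesenchymal cytoskeleton and surface, 4 were separated higher and 2 lower, and their median log2 change was -0.00863, against -0.0339 for all genes tested. S100A4, a calcium-binding protein also called fibroblast-specific protein 1, fell from 16.8 to 17.3 CPM in wild type and 18.3 to 20.7 CPM in No gRNA to 4.32 to 5.62 CPM in set 1 and 2.46 to 3.38 CPM in set 2 (log2 fold change -2.26, SE 0.0984, adjusted p = 5.88e-06 by TREAT). TPM2 was separated lower. TAGLN, the smooth muscle actin-binding protein transgelin, rose from 3.06 to 6.16 CPM in controls to 18.0 to 21.4 CPM in targeted libraries (2.28, SE 0.139, adjusted p = 0.00011 by TREAT), and TPM1, CDH4 and CD44 were separated higher by 0.81, 0.66 and 0.58. VIM, vimentin, was at 2582 to 2663 CPM in wild type, 2362 to 2480 CPM in No gRNA, 1338 to 1351 CPM in set 1 and 2555 to 2623 CPM in set 2. The lower VIM level was thus seen in set 1 and not in set 2. AXL, CDH2 and CDH11 overlapped as well.

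Of 23 mesenchymal matrix genes, 4 were separated higher and SPARC lower. THBS1, thrombospondin 1, measured 549, 520 and 620 CPM in wild type and 354, 468 and 389 CPM in No gRNA, and 1688, 1608 and 1586 CPM in set 1 and 2163, 2101 and 2160 CPM in set 2 (log2 fold change 1.97, SE 0.052, adjusted p = 2.49e-07 by TREAT). COL1A1, COL4A1 and COL4A2 were separated higher by 1.06, 0.92 and 0.88. FN1, fibronectin, was at 224 to 263 CPM in wild type and 1310 to 1497 CPM in No gRNA, with set 1 (619 to 817 CPM) and set 2 (337 to 407 CPM) between them, so its direction depended on the control. Other EMT factors did not follow ZEB1. SNAI2 (Slug) measured 16.9, 17.0 and 18.7 CPM in wild type, 15.8, 16.8 and 17.6 CPM in No gRNA, 97.7, 95.9 and 95.3 CPM in set 1 and 38.2, 39.0 and 38.8 CPM in set 2, a rise of 1.83 (SE 0.046, adjusted p = 3.17e-07 by TREAT). SNAI1 (Snail) was separated by 0.85 without a call, ZEB2 overlapped (0.21), and TWIST1, TWIST2, PRRX1 and FOXC2 had too few counts to be tested.

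**Figure D3:**
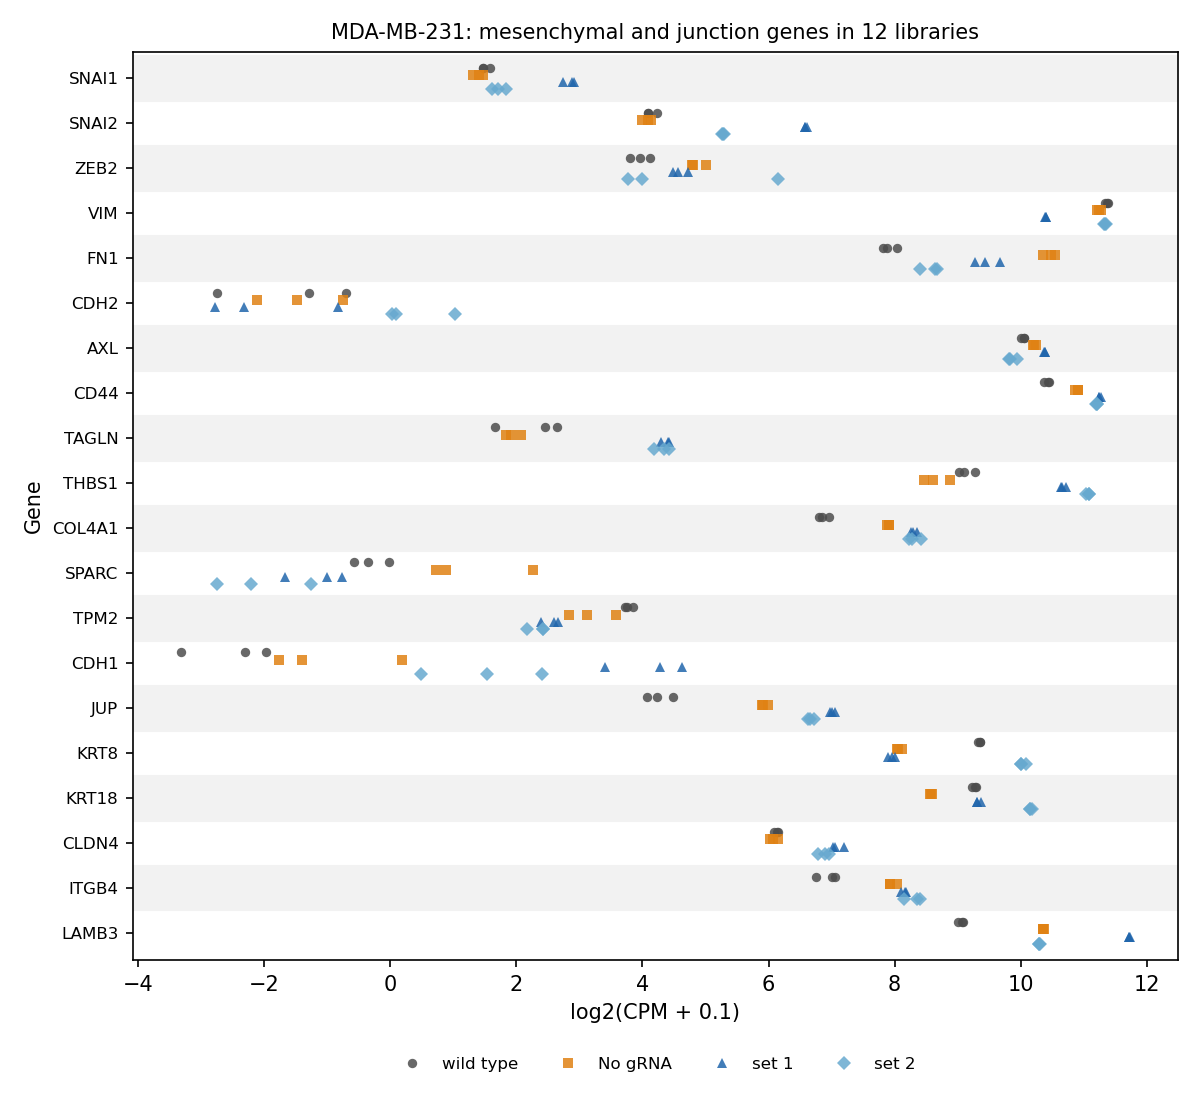
Levels of 20 mesenchymal and junction genes in the 12 MDA-MB-231 libraries as log2(CPM + 0.1), each point 1 library. SNAI2, TAGLN and THBS1 are higher in all targeted libraries, VIM is lower in set 1 only, FN1 of both sets lies between the controls, and KRT8 pairs set 1 with No gRNA and set 2 with wild type.

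The other genes that fell in all 4 comparisons were of mixed function. ENSG00000227706, a long noncoding RNA on chromosome 6 (67878316 to 67889339, minus strand), fell from 13.3 CPM or more in every control to 1.21 to 1.72 CPM in targeted libraries (log2 fold change -3.16, SE 0.11, adjusted p = 1.57e-07 by TREAT), and both controls and both sets were close to each other. PDE7B, a cAMP phosphodiesterase, fell by 2.44 and ATOH8, a basic helix-loop-helix factor, by 3.73, from 1.17 to 2.83 CPM to 0.0568 to 0.269 CPM. OLFML1, an olfactomedin-like secreted protein, fell by 2.25. TIMP3, the inhibitor of metalloproteinases that binds to matrix, was the most abundant, at 504 to 508 CPM in wild type, 1210 to 1228 CPM in No gRNA, 204 to 208 CPM in set 1 and 172 to 178 CPM in set 2 (-2.05, SE 0.0181, adjusted p = 8.83e-12 by TREAT). Its fall was -1.30 and -1.53 against wild type and -2.57 and -2.80 against No gRNA.

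Lists for other programmes held few or no separated genes. In proliferation (26 tested), interferon-stimulated genes (26), unfolded protein and ATF4 response (14), corepressors of KRAB and ZEB1 (14) and genes near predicted off-target sites (4), 0 genes were separated in either direction, and none passed TREAT on the mean contrast. The proliferation and ATF4 lists differed within each kind of cell instead. The median log2 difference of proliferation genes was -1.10 for No gRNA against wild type and 1.18 for set 2 against set 1, and for the ATF4 list it was 1.82 and -1.645. Inflammatory cytokines gave 1.36 and -1.54, with CXCL5 and CCL2 separated lower of 21 tested, and CCL2, a monocyte chemokine, fell from 79.7 to 107 CPM in controls to 38.5 to 44.3 CPM in targeted libraries (-1.18, adjusted p = 0.0108 by TREAT). In the EGF list TGFA was the only separated gene of 9 (1.12), and in hypoxia and glycolysis SLC2A1 of 16 (0.51), neither with a call. On the mean contrast 1 other gene of the EGF list was called higher. All these lists were chosen with earlier results of these data known, and the counts are to be read beside 5.79% and 2.98% for all genes.

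**Figure D4:**
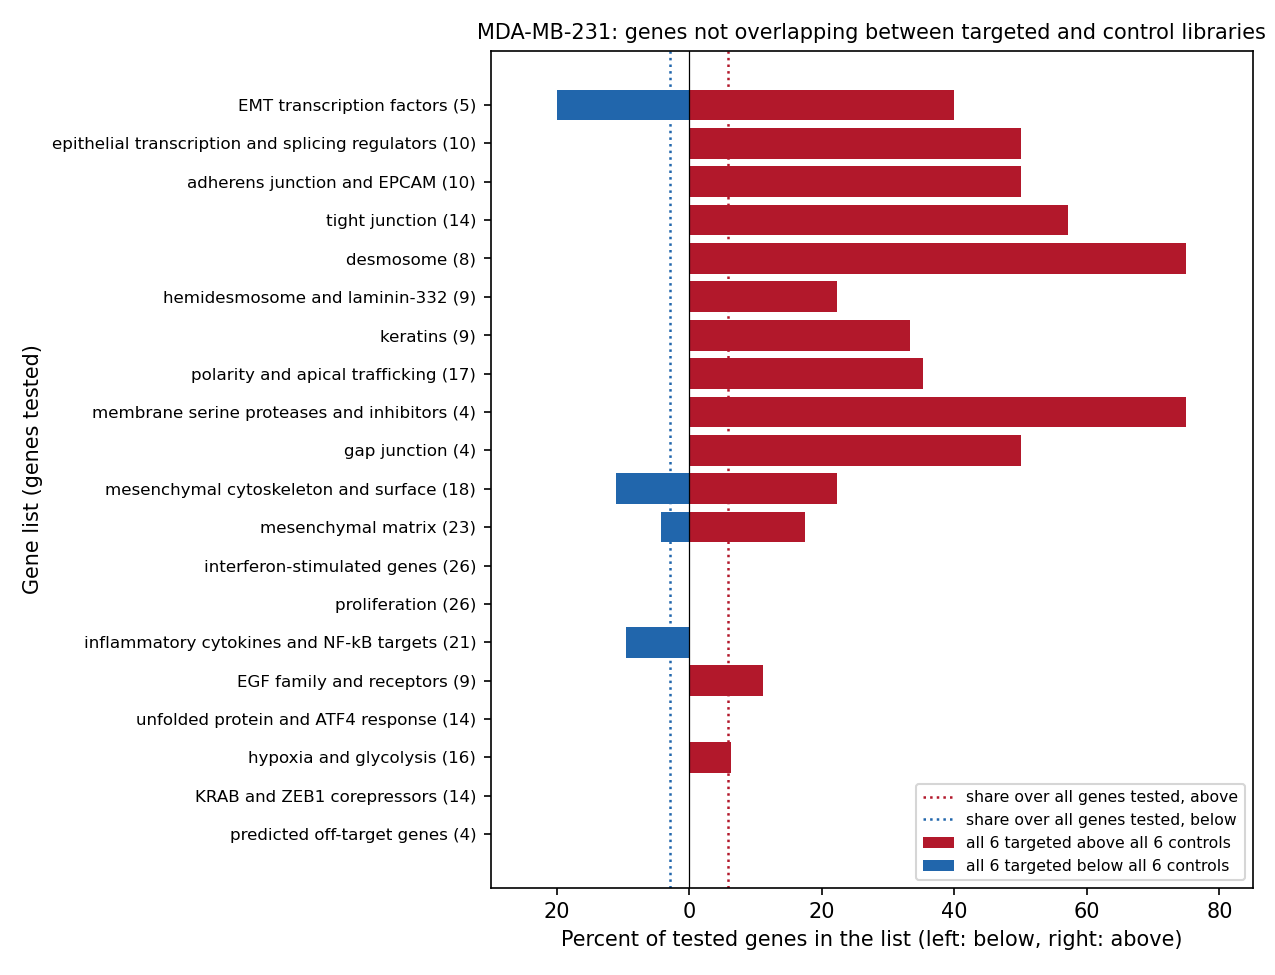
Share of tested genes in each list whose 6 targeted libraries lay above (red, right) or below (blue, left) all 6 controls, with the number tested in brackets and dotted lines at 5.79% and 2.98% for all genes tested. The longest bars are those of desmosomes (6 of 8) and membrane proteases (3 of 4), and the proliferation, interferon and ATF4 lists are at 0.

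Position and promoter letters were examined because the rule did not use them. Of the 89 rising genes, 14 lie on chromosome 1 (15.7%, against 10.1% of genes tested), 11 on chromosome 19 (12.4%, against 7.1%) and 8 on chromosome 6 (8.99%, against 4.95%). Some other chromosomes held less than their share, among them 3 (2.25%, against 5.59%), 12 (2.25%, against 5.35%) and 10 (1.12%, against 3.85%). Others held more, among them 8 (5.62%, against 3.46%) and 20 (4.49%, against 2.64%). These shares were not tested, and the counts on chromosomes 19 and 6 include overlapping partners. On chromosome 19, CRB3 overlaps DENND1C, on the opposite strand, by 15 bp, and ENSG00000275234 lies within DENND1C and 2244 bp past CRB3. SPINT1 and SPINT1-AS1 overlap by 425 bp, THBS1-IT1 lies within THBS1, and ENSG00000261116 within FAM83B. Without strand, reads from the stretch shared by partners on opposite strands cannot be told apart. THBS1 and THBS1-IT1 lie on the same strand, as do FAM83B and ENSG00000261116, so strand would not part their shared reads. ARHGEF35 and the pseudogene ARHGEF34P are near-identical copies, and their separate counts are uncertain.

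RefSeq promoter windows on GRCh38.p14, from 250 bases before to 50 after a start site, were given for 56 of the 89 rising genes. For each gene the window with the most upstream RefSeq start given was taken. The E-box letters CACCTG, searched on both strands (CAGGTG on the other), occurred in 32 of the 56 (57.1%), against 2109 of 11400 tested genes with a window (18.5%). Over all 76 windows of the rising genes the share was 52.6%, against 18.8% of 16530. In the 695 windows of the 910 separated higher genes it was 28.2%, in the 351 of the 468 separated lower genes 17.1%. Another E-box, CACGTG, occurred in 2 of the 56 (3.57%) and in 9.81% of tested genes, and the median GC content was 67.5% and 65%. A match describes these letters only and is not a binding site, and no test was made of these shares. The stretches below end before the RefSeq start site of their window. By the gene positions used here, those of CRB3, LAD1 and, further below, S100A4 lie inside the gene. Shown are the rising genes with the widest gaps that hold the letters before that start, then called junction genes and MAP7. Each stretch is 5′ to 3′ on the gene's strand with the E-box letters in capitals.
CRB3 (chr19:6464189-6464238, plus strand): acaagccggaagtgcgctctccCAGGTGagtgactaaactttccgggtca
KDF1 (chr1:26960472-26960521, minus strand): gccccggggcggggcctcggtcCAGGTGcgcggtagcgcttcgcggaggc
DAPP1 (chr4:99816602-99816651, plus strand): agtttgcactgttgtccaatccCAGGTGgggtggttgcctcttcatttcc
LAD1 (chr1:201399332-201399381, minus strand): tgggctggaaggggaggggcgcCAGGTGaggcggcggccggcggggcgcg
OCLN (chr5:69492492-69492541, plus strand): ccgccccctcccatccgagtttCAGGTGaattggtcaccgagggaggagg
DSP (chr6:7541564-7541613, plus strand): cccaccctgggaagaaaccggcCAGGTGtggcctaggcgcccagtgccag
DSC2 (chr18:31102550-31102599, minus strand): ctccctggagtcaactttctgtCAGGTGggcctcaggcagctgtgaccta
MAP7 (chr6:136550476-136550525, minus strand): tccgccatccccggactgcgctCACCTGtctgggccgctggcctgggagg

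Counted from the start site, the copy nearest to it lies at -60 in CRB3, whose window holds 5 copies, -31 in KDF1, -35 in LAD1, -33 in OCLN, -85 in DSP, -81 in MAP7, -156 in DSC2 and -203 in DAPP1. In BSPRY both copies lie past the start site. Of the falling genes 5 had a window, and S100A4 and ZEB1 itself held the letters:
S100A4 (chr1:153545943-153545992, minus strand): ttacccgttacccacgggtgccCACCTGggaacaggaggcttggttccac
ZEB1 (chr10:31318338-31318387, plus strand): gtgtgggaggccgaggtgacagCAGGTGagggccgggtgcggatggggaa

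SUM159, the other mesenchymal TNBC line of the study, gave values that the selection had not used. Its 6 targeted libraries (gRNA 4 and All gRNA) were compared with 6 controls (wild type and No gRNA) in the same way, with 1.25 µg/mL puromycin and in sequencing run 1, so line and run cannot be told apart. In SUM159 as a whole, 5.18% of 15147 genes were separated higher and 4.45% lower, and TREAT called 0.799% and 0.218%. Of the 89 genes, 57 had enough counts there, and of these 51 changed in the same direction (89.5%, against 50.5% of all SUM159 genes tested). Of the 57, 33 were separated higher (57.9%), 0 were separated lower and 20 were called higher. EPCAM passed the SUM159 count filter only through the targeted libraries, so it had to differ. How many other genes did so in SUM159 was not examined, so these counts and those that follow are a description. Of the 7 falling genes 4 were tested, 3 were separated lower and 2 were called lower, ZEB1 and S100A4. Of all 910 separated higher genes, 781 were tested in SUM159, 140 were separated higher (17.9%) and 29 lower. Of the 468 lower genes, 381 were tested, with 43 separated lower (11.3%) and 24 higher.

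For CDH3, MAP7 and DSP the difference between the lines was within its error. CDH3 rose in SUM159 from 0.388 to 3.43 CPM in controls to 37.5 to 66.4 CPM, a log2 change of 5.49 against 5.52 in MDA-MB-231 (difference 0.05, SE 0.348). The difference was -0.18 (SE 0.227) for MAP7 and -0.05 (SE 0.0799) for DSP. EPCAM rose by 4.91 in SUM159 (difference -0.17, SE 0.368), but from 0 to 0.0719 CPM in controls to 0.784 to 1.33 CPM. At so few counts the size of that rise is uncertain, so its nearness to the MDA-MB-231 change is not interpreted. Its level stayed far below the 285 CPM or more of targeted MDA-MB-231 libraries. SPINT1 rose by 6.63 in SUM159, more than the 4.16 of MDA-MB-231 (difference -2.46, adjusted p = 0.0295 by TREAT on the interaction). Over all genes, 198 of 17182 differed between the lines in that test (1.15%), and 39 of the 89 rising genes did, 38 with the larger change in MDA-MB-231. The 89 were chosen for their change in those same MDA-MB-231 libraries and 57 had enough counts in SUM159, so nothing is read from that direction.

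For other genes that SUM159 expressed, the difference is given as a description for the same reason. MYO1D changed by 0.16 in SUM159, with controls from 6.97 to 30.5 CPM and targeted libraries from 11.6 to 22.2 CPM (difference from MDA-MB-231 4.20, SE 0.225). LCP1 changed by 0.49 there (difference 2.17, SE 0.0449) and THBS1 by -0.08 (difference 2.06, SE 0.11). FERMT1, kindlin-1, had a SUM159 change of -0.27, and its libraries overlapped. TIMP3, which fell in MDA-MB-231, changed by 0.80 in SUM159, with controls from 204 to 570 CPM and targeted libraries from 549 to 662 CPM (difference -2.84, SE 0.0305).

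**Figure D5:**
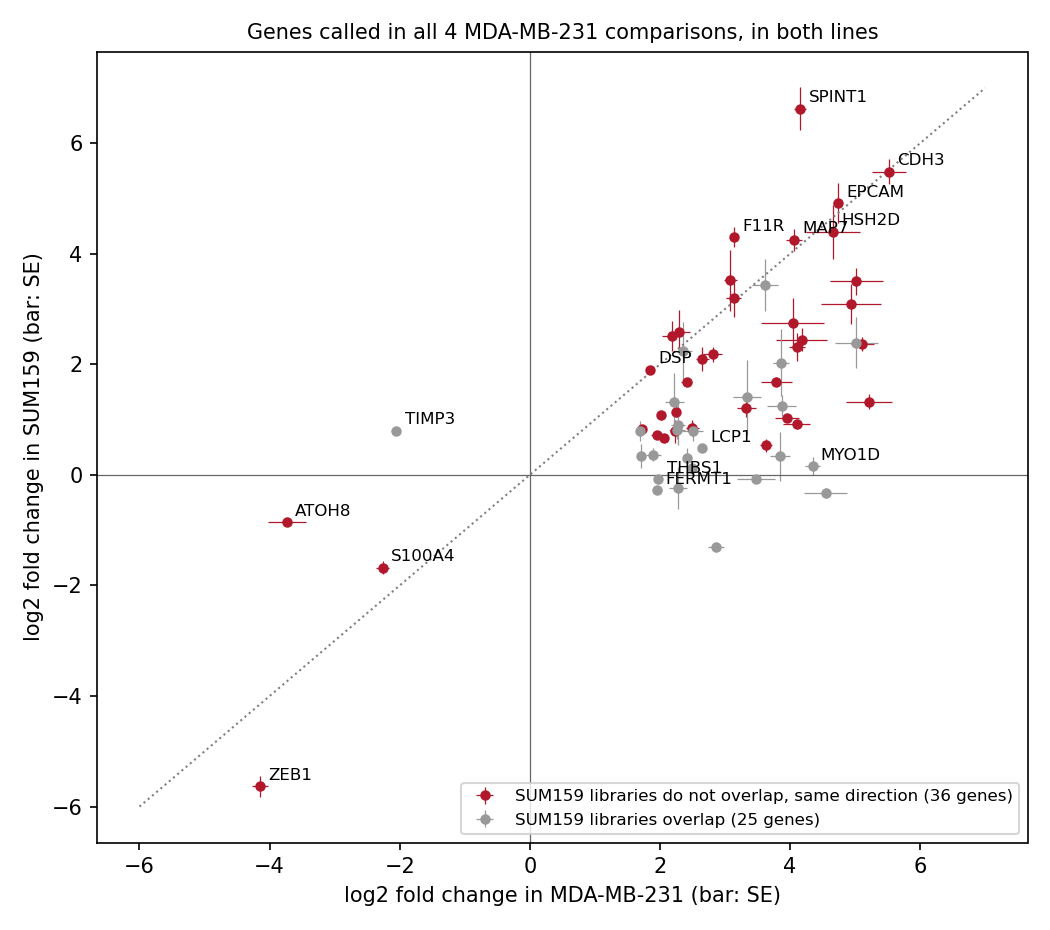
The log2 fold change of targeted against control cells in MDA-MB-231 (horizontal) and SUM159 (vertical) for the 61 of 96 called genes tested in both lines, with bars for the SE and a dotted line of equal change. CDH3, EPCAM and MAP7 lie near the line, SPINT1 and F11R above it, MYO1D, LCP1 and THBS1 near 0 in SUM159, and TIMP3 has opposite signs. The SUM159 controls of EPCAM were at or near 0, so its height is uncertain.

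Most separated genes changed little. Of the 910 higher genes 595, and of the 468 lower genes 317, changed by less than 1 on the log2 scale, and the median gap was 0.196 and 0.135. The genes nearest the boundary were MITF, with a highest control of 25.5 CPM and a lowest targeted library of 25.501 CPM, and ENOPH1, at 97.715 and 97.723 CPM, just inside, and ORC5 and UQCC2 just outside, with overlaps of -0.000801 and -0.000834 on the log2 scale. The division between higher and lower also rested on scaling: with library totals in place of the trimmed mean of M-values, 735 genes were separated higher and 631 lower, and with the upper quartile 733 and 647. The genes called in all 4 comparisons were less affected, at 84 higher and 8 lower and at 85 and 8.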

How the data were processed

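RNA from SUM159 and MDA-MB-231 cells was sequenced as 50 bp single-end reads. The authors quantified transcripts with Salmon on GRCh38 and deposited estimated counts per gene (tximport lengthScaledTPM, not whole numbers) for 57165 genes. Groups were taken from the sample titles. The 12 MDA-MB-231 libraries were filtered with filterByExpr in edgeR 4.0.16 (minimum count 10), scaled by the trimmed mean of M-values and fitted with voom in limma 3.58.1 (R 4.3.3) with 1 mean per group, and TREAT tested each contrast against a log2 change of 1 at an adjusted p of 0.05 (Benjamini-Hochberg over all genes). SUM159 was fitted alone, and the difference between lines in a joint fit. Separation was read from log2 CPM with a prior count of 2, and CPM are given without it. Intervals and ratios cover counting error only.

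Named were ZEB1, up to 14 rising and 14 falling genes with the widest gap among those called in all 4 comparisons (7 fell), list members as examples, and 2 genes on each side of the boundary of the rule. Other members of the 96 were named after their values were seen. The members and lists were chosen with earlier results of these data known. The voom and TREAT steps were tested on simulated data for the mean contrast: of genes changed by 3 on the log2 scale 94.9% were called and 80.6% in all 4 comparisons, of genes changed by 1.5 57.6% and 28.3%, and 0 of 15229 unchanged genes. The simulation held no difference between the 2 controls or between the 2 sets. In the data 566 and 483 genes were called there, so these rates do not cover calls that arise from such differences. Alternatives covered scaling, filter, test (edgeR, DESeq2 1.42.0 on rounded counts), control, replicate block, quality weights and each library left out. Figures were drawn with matplotlib 3.10.9. The gRNA sequences are not shown, and some genes are not reported here.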

Additional observations from a re-analysis of the deposited data

Results flagged for a closer look

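The change in MDA-MB-231 minus the change in SUM159 passed TREAT on the interaction for 12 of the 20 genes named by gap. In this joint fit 198 of all 17182 genes passed (1.15%), and line and sequencing run cannot be told apart. The 20 genes were named for their gap in the same MDA-MB-231 libraries, so the differences are a description and the choice of genes favours their direction. On the log2 scale the difference was 7.985 for BSPRY, 7.117 for KDF1, 6.642 for DAPP1, 6.015 for LAD1, 5.758 for MAL2, 5.187 for ATP2C2, 5.093 for DENND1C, 5.029 for ENSG00000275234, 4.256 for CRB3 and 3.9 for MDFI. MDFI had enough counts in SUM159 to be tested there alone, and the other 9 rising genes did not. For those 9 the change in SUM159 is poorly measured, so the choice of genes largely set the difference and nothing is read from it. BSPRY, KDF1, LAD1, DAPP1, ATP2C2, CRB3 and ENSG00000275234 also passed the MDA-MB-231 count filter only through the targeted libraries, and ATOH8 only through the controls. Of the falling genes, ATOH8 differed by -2.865 and TIMP3 by -2.842.

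Some single libraries stood apart from the rest of their 6. For KDF1, No gRNA replicate 1 was the only control above 0, and for LAD1, wild type replicate 2 was, so the gap took the whole range in both (1). These libraries held 1.09 and 0.55 estimated counts, so the value of 1 follows from the zeros beside them. For PDE7B, set 1 replicate 1 was lowest among targeted libraries, with a gap of 0.663 of the range. If values were normally distributed, chance would mark about 1 in 20 groups, and that rate does not apply to values at 0.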

How the results depend on the processing

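Scaling, filtering, quality weights and DESeq2 with a log2 threshold kept the counts of separated genes (1296 to 1483), of genes called on the mean contrast (242 to 265) and of genes called in all 4 comparisons (92 to 97) within 1.5 times the main counts of 1378, 255 and 96. Tests against 0 asked a wider question: limma called 7008 on the mean contrast and 1034 in all 4, and edgeR 6998 and 1022. Among the main 96, No gRNA differed from wild type in 40 (limma) or 45 (edgeR), and the sets in 56 or 49. With edgeR's glmTreat at a log2 threshold of 1, 329 genes were called on the mean contrast (248 higher, 81 lower). In all 4 comparisons it called 112 (100 higher, 12 lower). By glmTreat 11 of the 96 differed between No gRNA and wild type, against 6. A model with 2 groups called 115. With wild type as the only control 449 were called and 5108 separated, and with No gRNA 3736 were separated.

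Leaving out 1 library gave 1482 to 1571 separated genes, 224 to 240 called on the mean contrast and 81 to 94 called in all 4 comparisons. Without wild type replicate 2, 3 genes differed between No gRNA and wild type, and without any other library 4 to 5, while 2 differed between the sets. All values of the 20 genes named by gap kept direction and side of the threshold, 240 with a library left out and 260 in other settings. These genes were chosen for wide gaps and calls in all 4 comparisons in the same libraries, so the choice largely set that outcome. Replicate numbers did not pair the libraries (correlations of deviations -0.052 to 0.04), and with the replicate block 251 genes were called on the mean contrast and 91 in all 4, with 5 and 2 for the smaller contrasts. With SUM159 wild type of run 2, 28 of 61 genes were called in the same direction, against 22. At 15461200 or more counts per library, genes near 0 in the controls have ratios with wide intervals.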
